A study of Mus musculus with 24 samples.

Results

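The genes described here encode the nuclear part of the machinery for oxidative phosphorylation: the subunits of respiratory complexes I to IV and of the ATP synthase. They were chosen by name alone, as the entries whose gene name starts with Nduf followed by a, b, c, s or v and a digit, with Uqcr, with Cox and a digit between 4 and 8, or with Atp5, together with Sdha, Sdhb, Sdhc and Sdhd. The rule found 86 of the 32310 entries in the expression table. By name, 37 were counted with complex I, 4 with complex II, 9 with complex III, 19 with complex IV and 17 with the ATP synthase. Expression was measured by RNA-seq in callosal, subcerebral and corticothalamic projection neurons that were purified by FACS from cerebral cortex of outbred CD1 mice at embryonic days 15, 16 and 18 (E15, E16, E18) and at postnatal day 1 (P1). Callosal neurons connect the hemispheres, subcerebral neurons project to brainstem and cord, and corticothalamic neurons to the thalamus. Each stage and subtype had 2 libraries, 24 in all for 12 groups, and the labels name no treatment or engineered allele. No source used here gives the sort markers or says whether the libraries came from different animals. The table holds 1 pooled value per group, read as FPKM (fragments scaled to transcript length and to sequencing depth), so values carry no replicate error and their depth is unknown.

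Oxidative phosphorylation runs in the inner mitochondrial membrane. Complex I takes electrons from NADH and complex II takes them from succinate, complex III passes them on to cytochrome c, and complex IV, cytochrome c oxidase, hands them to oxygen. Complexes I, III and IV pump protons as they do so, and the ATP synthase lets the protons flow back to make ATP. Most subunits are encoded in the nucleus and are built together with a small set encoded by mitochondrial DNA. In neurons this pathway supplies much of the ATP for ion pumping and synaptic transmission, and mitochondria are carried far into growing axons.

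The promoters of 5 members are shown because the results below turn on these genes: Ndufv3 had the largest stage difference, Cox6a1 was the most abundant gene of complex IV and had the largest difference between subcerebral and corticothalamic neurons, and Atp5g1, Atp5g2 and Atp5g3 encode the same mature c subunit of the ATP synthase but had different courses. Each window runs from 250 bases before the annotated start to 50 bases after it, 5′ to 3′ on the gene's strand, from RefSeq on GRCm38.p6. Capitals mark matches on either strand to GCGCNTGCG, the core of the site of the transcription factor NRF1, or to CCGGAAG, an ETS-type site as bound by GABP; none of the motifs searched contains another. The windows lie at chr17:31519865-31520164, plus strand for Ndufv3, chr5:115348909-115349208, minus strand for Cox6a1, chr11:96075582-96075881, minus strand for Atp5g1, chr15:102670998-102671297, minus strand for Atp5g2 and chr2:73911277-73911576, minus strand for Atp5g3.
Ndufv3: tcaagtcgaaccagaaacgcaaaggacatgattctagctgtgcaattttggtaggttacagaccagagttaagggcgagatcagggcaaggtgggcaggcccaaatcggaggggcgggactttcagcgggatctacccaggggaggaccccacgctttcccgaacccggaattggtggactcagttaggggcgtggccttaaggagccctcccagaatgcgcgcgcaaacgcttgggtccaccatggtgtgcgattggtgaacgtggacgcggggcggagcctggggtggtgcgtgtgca
Cox6a1: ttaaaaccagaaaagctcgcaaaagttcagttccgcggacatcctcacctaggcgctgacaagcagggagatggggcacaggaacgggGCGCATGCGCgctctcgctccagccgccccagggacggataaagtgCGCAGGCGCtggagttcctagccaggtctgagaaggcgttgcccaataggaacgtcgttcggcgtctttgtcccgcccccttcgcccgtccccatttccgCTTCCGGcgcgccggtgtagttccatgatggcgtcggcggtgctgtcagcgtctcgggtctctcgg
Atp5g1: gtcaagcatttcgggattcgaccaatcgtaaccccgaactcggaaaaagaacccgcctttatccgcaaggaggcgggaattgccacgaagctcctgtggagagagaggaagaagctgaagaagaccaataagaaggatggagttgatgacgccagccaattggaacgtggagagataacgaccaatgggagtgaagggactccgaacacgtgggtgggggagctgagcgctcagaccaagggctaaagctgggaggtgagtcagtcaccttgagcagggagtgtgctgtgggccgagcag
Atp5g2: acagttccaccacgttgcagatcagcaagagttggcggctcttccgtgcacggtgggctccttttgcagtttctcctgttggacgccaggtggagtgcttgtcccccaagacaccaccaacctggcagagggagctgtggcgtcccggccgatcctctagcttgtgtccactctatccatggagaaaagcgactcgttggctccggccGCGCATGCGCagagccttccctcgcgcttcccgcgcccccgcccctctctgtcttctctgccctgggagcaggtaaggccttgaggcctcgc
Atp5g3: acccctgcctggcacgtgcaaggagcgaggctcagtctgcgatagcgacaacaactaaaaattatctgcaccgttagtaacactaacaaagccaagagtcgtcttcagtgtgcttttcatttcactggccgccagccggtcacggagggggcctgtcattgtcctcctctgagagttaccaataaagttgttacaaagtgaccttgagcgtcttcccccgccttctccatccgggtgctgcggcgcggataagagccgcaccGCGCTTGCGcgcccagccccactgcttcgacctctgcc

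The Cox6a1 window held the NRF1 letters at bases 89 to 98, where matches on both strands overlap, and 135 to 143, and the ETS letters at bases 235 to 241, counted from the first base of the window. Atp5g2 held the NRF1 letters at bases 209 to 218 and Atp5g3 at bases 263 to 271, while neither motif was found in the windows of Ndufv3 and Atp5g1. Among tested members, 66 genes had a RefSeq window, and the NRF1 letters occurred in 24 of them (36.4%), against 16.3% of the 9478 tested genes with a window and 7.12% of all 27025 genes with one. The ETS letters occurred in 16 of the 66 (24.2%), against 20.5% of tested genes and 9.93% of all genes. The letters AAGATGGCG, a site of the factor YY1, occurred in 8 (12.1%), against 3.72% and 1.64%. Of the 59 windowed members that were higher at P1 than at E15, 35.6% held the NRF1 letters, and of the 8 rows that were not, 50.0% did. The row Uqcr shares the window of Uqcr11, which held the letters, so this window is counted in both groups. A match is a description of the letters and not a site that was measured here.

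The column totals ran from 355965 FPKM to 473871 FPKM, the highest in P1 subcerebral neurons, and 12294 to 12838 genes per group reached 1 FPKM. Cux2, a marker of callosal neurons, was 59.1 to 104 FPKM in callosal neurons and at most 6.80 FPKM in the others. Bcl11b (CTIP2), a marker of subcerebral neurons, was 104 to 168 FPKM in subcerebral neurons and did not exceed 6.94 FPKM in callosal ones, while corticothalamic neurons had 97.1 FPKM at E15 and 32.1 FPKM at P1. Tle4, a marker of corticothalamic neurons, was 192 to 212 FPKM in corticothalamic neurons, 65.3 FPKM in E15 subcerebral neurons, 11.3 to 23.0 FPKM in later subcerebral neurons and no more than 3.16 FPKM in callosal ones. Fezf2, which directs subcerebral identity, was 127 to 366 FPKM in subcerebral neurons, and callosal neurons had 65.9 FPKM at E15 and 11.4 FPKM at P1. Corticothalamic neurons had 125 FPKM of Fezf2 at E15, near the lowest subcerebral value, and 65.8 FPKM at P1. Tests were run with limma on log2(FPKM + 1) over the 13946 genes that reached 1 FPKM in 2 or more columns, with additive terms for stage and subtype, Benjamini-Hochberg adjustment and a threshold of 0.05. The error of this model measures how uneven a difference was across stages or subtypes; the spread between libraries does not enter it. In bulk RNA of sorted cells, fewer cells of a type and less RNA per cell cannot be told apart.

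The set was expressed in every group. Of the 86 members, 80 were tested, and the 6 that did not pass the filter were the tissue-restricted or low forms Cox4i2, Cox6b2, Cox7b2, Cox8b, Cox8c and Ndufa4l2, of which Cox8c was listed at 0 in all 12 groups. The summed level of all members was 5857, 5631, 5662 and 8102 FPKM in callosal neurons from E15 to P1, 5456, 6002, 6999 and 11036 FPKM in subcerebral neurons and 4900.4, 4731, 5424 and 8648 FPKM in corticothalamic neurons. The highest sum was in P1 subcerebral neurons, and every P1 sum was above every embryonic sum of the set. As a share of all FPKM of a column, the members took 1.48%, 1.46%, 1.49% and 1.95% from E15 to P1 in callosal neurons, 1.40%, 1.54%, 1.74% and 2.33% in subcerebral neurons and 1.30%, 1.33%, 1.49% and 2.13% in corticothalamic neurons. The P1 sum divided by the E15 sum was 1.38 in callosal neurons, 2.02 in subcerebral neurons and 1.76 in corticothalamic neurons. Most of that lay in the last interval: the P1 sum divided by the E18 sum was 1.43, 1.58 and 1.59 in the same order of subtypes, while the E18 sum divided by the E15 sum was 0.967, 1.28 and 1.11.

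**Figure D1:**
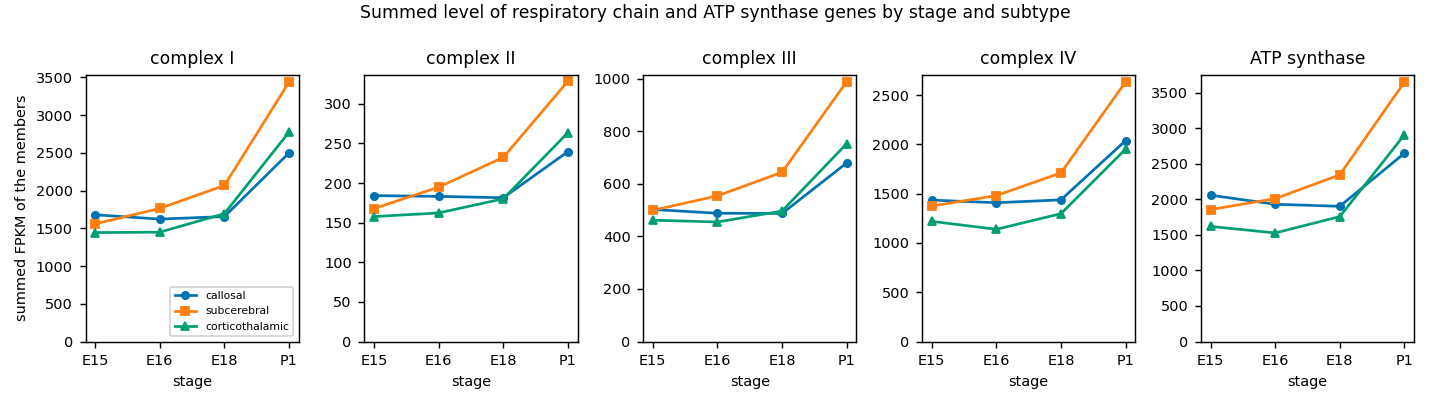
Summed FPKM of the members of each complex (y axis, from 0) at E15, E16, E18 and P1 (x axis) in callosal (circles), subcerebral (squares) and corticothalamic (triangles) neurons, 1 pooled value per point. In every panel the P1 subcerebral point is the highest; for all members together it is 11036 FPKM, against 8648 FPKM in corticothalamic and 8102 FPKM in callosal neurons at P1.

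All complexes shared this course. Complex I, which oxidises NADH, summed to 1679, 1622, 1656 and 2499 FPKM in callosal neurons from E15 to P1, 1559, 1764, 2068 and 3438 FPKM in subcerebral neurons and 1444, 1449, 1694 and 2775 FPKM in corticothalamic neurons. Complex II, succinate dehydrogenase, summed to 184, 183, 182 and 239.7 FPKM in callosal neurons from E15 to P1, 168, 195, 232 and 328 FPKM in subcerebral neurons and 158, 162, 180.2 and 264 FPKM in corticothalamic neurons. Complex III summed to 503, 488, 487 and 679.6 FPKM in callosal neurons from E15 to P1, 499, 555, 644 and 989 FPKM in subcerebral neurons and 462, 455, 497 and 753 FPKM in corticothalamic neurons. In each of these complexes subcerebral neurons stood highest at P1, and callosal neurons had the highest sum at E15. Complex IV summed to 1435, 1408, 1437 and 2038 FPKM in callosal neurons from E15 to P1, 1374, 1481, 1711 and 2634 FPKM in subcerebral neurons and 1219, 1138, 1297 and 1951 FPKM in corticothalamic neurons. The ATP synthase summed to 2056, 1929.8, 1901 and 2646 FPKM in callosal neurons from E15 to P1, 1855, 2008, 2344 and 3647 FPKM in subcerebral neurons and 1618, 1526, 1756 and 2905 FPKM in corticothalamic neurons. The order at E15 and at P1 was the same in these, except that corticothalamic neurons were below callosal neurons in complex IV at P1. That exception depends on Ndufa4, which was summed with complex I by its name but has since been assigned to complex IV. Ndufa4 was 375 FPKM in corticothalamic and 260.1 FPKM in callosal neurons at P1. The P1 sum over the E15 sum was greatest in subcerebral neurons for each of the 5 groups, at 2.21 for complex I, 1.96 for complex II, 1.98 for complex III, 1.92 for complex IV and 1.97 for the ATP synthase. In callosal neurons the same ratio was 1.49, 1.30, 1.35, 1.42 and 1.29, and in corticothalamic neurons it was 1.92, 1.67, 1.63, 1.60 and 1.80.

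The stages were compared to see when the set moved. At P1 against E15, 71 of the 80 tested members were higher and 2 were lower, beside 33.8% of all tested genes higher and 33.6% lower (67.4% called in all). Cox6a2, among the higher, and Cox7a1, among the lower, passed the filter only through the stages where they were high. The members' median log2 difference was 0.77, beside 0.00 over all tested genes. In 59 of the 80 the 3 values at P1 lay above all 9 embryonic values, which held for 12% of all tested genes, and in 0 members did they lie below, against 14.5% of all tested genes. To set the members beside genes of like level, the comparison was also read among the 4352 genes with a mean of 20 to 500 FPKM, a range chosen after seeing the data: 69 of the 73 members in it were higher and 0 lower, beside 41.4% of those genes higher and 29.0% lower, with medians of 0.79 for the members and 0.10 for the range. Between 70 and 74 members were called whichever subtype or group value was left out. Stage and the collection, preparation and sequencing of its libraries cannot be told apart.

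Markers of other cell types differed with stage too. The summed level of the 10 interneuron markers was 11.4 to 89.8 FPKM over the subtypes at E15, 56.4 to 256 FPKM at E16, 163 to 533 FPKM at E18 and 398 to 718 FPKM at P1, with 0 of the 10 at 0 in all groups of a stage. Outside E15 callosal neurons most of it was Npy, the neuropeptide Y gene, at 394 FPKM in callosal, 415 FPKM in subcerebral and 687 FPKM in corticothalamic neurons at P1, and Npy was the only marker of the list to pass at P1 against E15 (4.38 ± 0.39, limma adjusted p = 3.28e-05). Without Npy the other 9 markers summed to 68.6 FPKM in E15 callosal neurons and to 2.78 to 30.7 FPKM in the other 11 groups. In E15 callosal neurons Npy was 15.6 FPKM beside 19.99 FPKM of Dlx1, 16.3 FPKM of Lhx6, 12.3 FPKM of Sst and 7.53 FPKM of Gad1, and in E16 callosal neurons Dlx1 was 1.53 FPKM and Lhx6 0.828 FPKM.

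Of the 11 tested progenitor markers, 8 were lower at P1 than at E15 and 2 higher, with a median of -1.21. Over all tested genes 33.6% were lower and 33.8% higher. Pax6, Sox2, Hes5, Top2a and Eomes reached 1 FPKM only at E15 and E16, and Neurog2 only in embryonic groups. The filter thus set the direction of all these markers. Neurog2 (-2.63 ± 0.21) and Eomes (-2.11 ± 0.34) were among the lower ones and Pcna (0.61 ± 0.10) and Hes1 (1.85 ± 0.57) were the higher ones. Without Pcna the other 13 progenitor markers summed to 24.8 FPKM in callosal, 29.9 FPKM in subcerebral and 12.6 FPKM in corticothalamic neurons at P1, against 72.5, 48.0 and 69.6 FPKM at E15 in the same order. Of the 6 tested markers of astrocytes and radial glia, Sparcl1 (1.68 ± 0.30) and Slc1a2 (1.11 ± 0.16) were higher at P1 and Slc1a3 (-1.45 ± 0.38) lower, with a median of -0.24. The sum over all 9 markers of that list, 125 to 193 FPKM at P1, against 74.4 to 119.5 FPKM at E15, was 47.6 to 76.8 FPKM at P1 and 61.2 to 83.2 FPKM at E15 without Sparcl1. The 11 microglia markers summed to 20.7 to 37.2 FPKM at P1, against 9.25 to 11.3 FPKM at E15, with 2 of 9 tested higher. Oligodendrocyte, vascular, Cajal-Retzius and red blood cell lists stayed at or below 44.7 FPKM in every group. Their part in the stage differences was not tested.

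**Figure D2:**
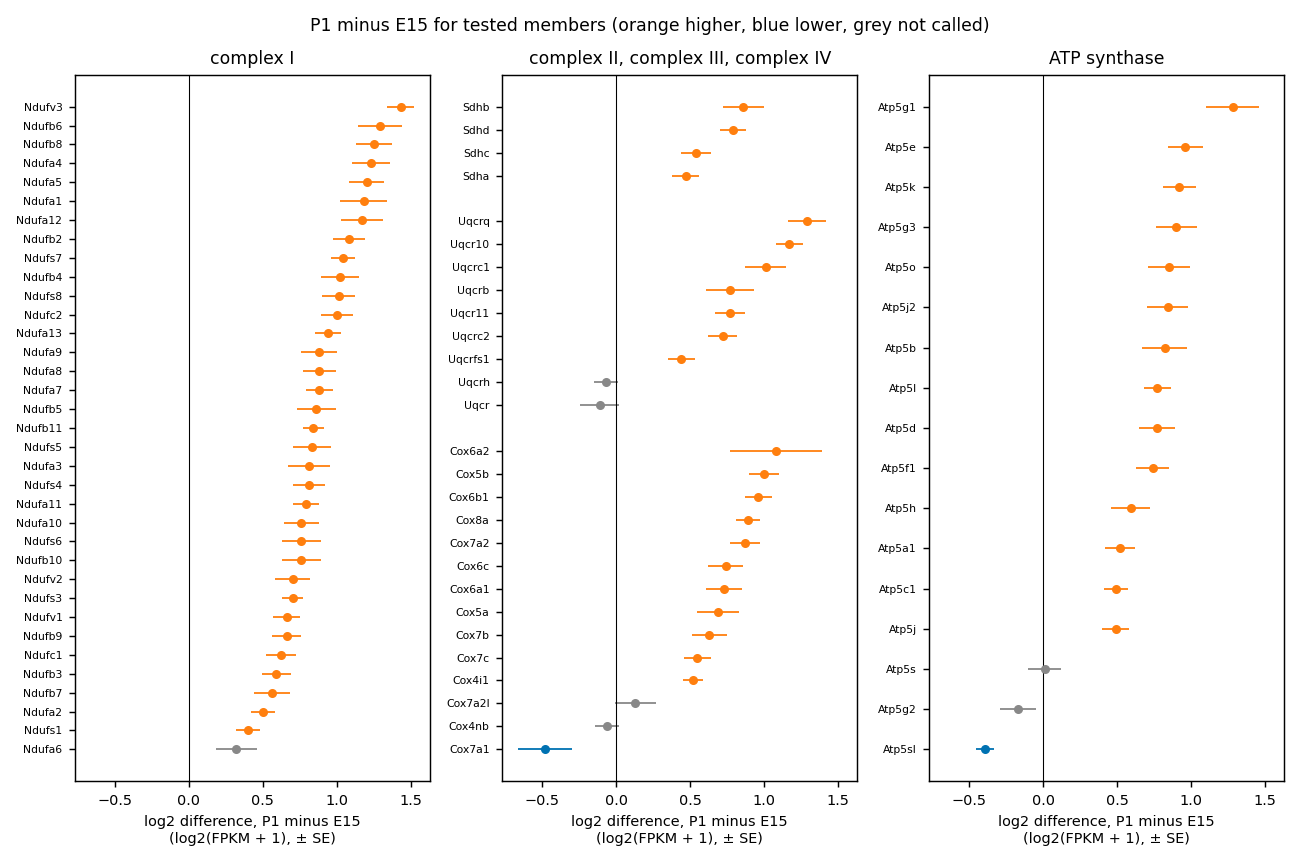
Log2 difference of P1 minus E15 (x axis, log2(FPKM + 1), point and SE of the limma fit) for 79 of the 80 tested members (rows), in 3 panels by complex. Orange marks the 70 higher members drawn, blue the 2 lower ones (Atp5sl and Cox7a1) and grey those not called. Cox7a1 passed the filter only through embryonic values.

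In complex I, 35 of 36 tested members were higher at P1 than at E15 and 0 were lower, with a median of 0.83. All 7 nuclear core subunits, which carry the flavin and the iron-sulfur clusters or bind ubiquinone, were higher, with Ndufs7, which carries an iron-sulfur cluster near the ubiquinone site, at 1.04 ± 0.08 (limma adjusted p = 1.28e-05). Of the accessory subunits, among which Ndufa4 was counted by its name, 28 of 29 tested were higher, by up to 1.43. That largest value belonged to Ndufv3, a small accessory subunit of the NADH-binding module, at 36.7, 43.04, 54.9 and 88.98 FPKM in callosal neurons from E15 to P1, 37.2, 50.5, 67.1 and 125 FPKM in subcerebral neurons and 38.7, 46.8, 54.97 and 97.2 FPKM in corticothalamic neurons. Its level was higher at each stage than at the one before in all 3 subtypes, and every P1 value was above every embryonic one. The difference of P1 minus E15 was 1.43 ± 0.09 (limma adjusted p = 7.38e-06). Ndufb6, an accessory subunit of the membrane arm, was 38.5, 33.6, 35.7 and 71.2 FPKM in callosal neurons from E15 to P1, 31.6, 42.3, 54.7 and 110.5 FPKM in subcerebral neurons and 33.6, 33.4, 37.7 and 80.7 FPKM in corticothalamic neurons. Its P1 values did not overlap the earlier ones, and the embryonic callosal values showed no such climb. The differences were 1.29 ± 0.15 at P1 against E15 (limma adjusted p = 0.00013) and 1.02 ± 0.15 at P1 against E18 (limma adjusted p = 0.00145).

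Ndufb8, another membrane-arm subunit, was 53.7, 51.1, 57.97 and 102 FPKM in callosal neurons from E15 to P1, 50.5, 63.9, 83.8 and 154 FPKM in subcerebral neurons and 46.97, 48.4, 57.9 and 112 FPKM in corticothalamic neurons. Again all P1 values exceeded all embryonic ones, and P1 minus E15 was 1.25 ± 0.12 (limma adjusted p = 4.04e-05). Ndufa4, named as a complex I gene but since assigned to complex IV, was the most abundant Nduf gene, at 146, 146, 148 and 260.1 FPKM in callosal neurons from E15 to P1, 131, 170.3, 207 and 352 FPKM in subcerebral neurons and 136, 155, 211 and 375 FPKM in corticothalamic neurons. Here the P1 corticothalamic value was the highest, above the P1 subcerebral one, and the difference of P1 minus E15 was 1.23 ± 0.13 (limma adjusted p = 8.15e-05). Ndufa5, a subunit of the peripheral arm, was 25.1, 25.6, 31.1 and 55.3 FPKM in callosal neurons from E15 to P1, 24.6, 29.6, 43.8 and 70.2 FPKM in subcerebral neurons and 22.98, 30.2, 32.9 and 47.4 FPKM in corticothalamic neurons. Its P1 minus E15 difference was 1.20 ± 0.12 (limma adjusted p = 5.71e-05), and its P1 values exceeded all the embryonic ones. Ndufa12, also of the peripheral arm, differed by 1.17 ± 0.14, with P1 values of 56.7 FPKM in callosal, 74.7 FPKM in subcerebral and 67.8 FPKM in corticothalamic neurons and embryonic values of 23.5 to 46.9 FPKM. Ndufa1, of the membrane arm, differed by 1.18 ± 0.16, with 58.3, 67.3 and 58.7 FPKM at P1 in the same order and 21.7 to 38.3 FPKM before. Ndufc2, also of the membrane arm, was among the largest at P1 against E18, at 0.89 ± 0.11, with 82.9, 125 and 84.9 FPKM at P1 in that order.

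The lowest of the tested complex I genes was Ndufa11, a membrane-arm subunit, at 9.33, 7.69, 7.79 and 13.9 FPKM in callosal neurons from E15 to P1, 9.44, 9.78, 10.5 and 19.4 FPKM in subcerebral neurons and 8.88, 8.13, 8.93 and 17.2 FPKM in corticothalamic neurons. Low level did not set it apart in direction: the difference was 0.79 ± 0.09 at P1 against E15 (limma adjusted p = 9.26e-05) and 0.82 ± 0.09 at P1 against E18. The exception in complex I was Ndufa6, a peripheral-arm subunit of the LYR family, at 44.4, 48.1, 53.9 and 59.6 FPKM in callosal neurons from E15 to P1, 59.7, 52.3, 59.4 and 91.9 FPKM in subcerebral neurons and 67.7, 58.6, 56.5 and 64.7 FPKM in corticothalamic neurons. Its P1 value stood out in subcerebral neurons, whereas in corticothalamic neurons the E15 value was the highest, and the difference of 0.32 ± 0.14 did not pass (limma adjusted p = 0.0649). Ndufa4l2, an Ndufa4 paralog known to be induced by hypoxia, was at most 0.376 FPKM and was not tested.

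In complex II all 4 subunits were higher at P1 than at E15. Sdhb, the iron-sulfur subunit, was the most abundant at 64.3, 60.5, 58.4 and 84.3 FPKM in callosal neurons from E15 to P1, 53.6, 64.4, 76.5 and 126 FPKM in subcerebral neurons and 46.99, 50.6, 55.95 and 94.5 FPKM in corticothalamic neurons. Its P1 values were above all embryonic ones, and the difference was 0.86 ± 0.14 (limma adjusted p = 0.000623). Sdhd, a membrane anchor, was the least abundant at 34.6, 34.4, 36.4 and 52.1 FPKM in callosal neurons from E15 to P1, 31.8, 38.1, 45.8 and 61.2 FPKM in subcerebral neurons and 31.5, 32.5, 39.2 and 58.5 FPKM in corticothalamic neurons, with a difference of 0.79 ± 0.09 (limma adjusted p = 8.57e-05). The other anchor, Sdhc, differed by 0.54 ± 0.10. The flavoprotein Sdha, which oxidises succinate, had the smallest difference of the complex, 0.47 ± 0.09 (limma adjusted p = 0.00228). Its values were 42.3, 43.9, 41.8 and 49.7 FPKM in callosal neurons from E15 to P1, 43.7, 48.4, 54.3 and 73.7 FPKM in subcerebral neurons and 42.9, 42.7, 44.4 and 58.2 FPKM in corticothalamic neurons, and its P1 callosal value lay below the E18 subcerebral one.

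In complex III, 7 of 9 tested members were higher at P1 than at E15, with a median of 0.77. The core proteins Uqcrc1 and Uqcrc2 and the Rieske iron-sulfur protein Uqcrfs1 were among them, at 1.01 ± 0.14, 0.72 ± 0.10 and 0.44 ± 0.09. Among the small subunits the largest difference was that of Uqcrq, at 54.03, 51.99, 55.9 and 99.1 FPKM in callosal neurons from E15 to P1, 45.8, 65.1, 79.8 and 145 FPKM in subcerebral neurons and 38.6, 43.9, 52.4 and 100.4 FPKM in corticothalamic neurons. All P1 values exceeded the embryonic ones, by 1.29 ± 0.13 for P1 minus E15 (limma adjusted p = 6.51e-05). Uqcr10, another small subunit, followed with 1.17 ± 0.09 (limma adjusted p = 1.3e-05), at 35.3, 41.7, 48.8 and 73.9 FPKM in callosal neurons from E15 to P1, 39.4, 45.4, 62.1 and 104 FPKM in subcerebral neurons and 32.6, 35.03, 40.6 and 70.4 FPKM in corticothalamic neurons. Uqcrh, the hinge protein that assists cytochrome c docking, was the most abundant gene of the complex and did not follow, at 109.5, 109.6, 94.3 and 101 FPKM in callosal neurons from E15 to P1, 128, 109.5, 115 and 134 FPKM in subcerebral neurons and 122, 105, 103 and 109 FPKM in corticothalamic neurons. Its P1 values lay within the embryonic range in callosal and corticothalamic neurons, and the difference was -0.07 ± 0.08 (limma adjusted p = 0.463). Uqcr was the lowest row, at 2.53, 2.01, 1.58 and 1.55 FPKM in callosal neurons from E15 to P1, 2.56, 2.74, 2.14 and 2.66 FPKM in subcerebral neurons and 1.13, 1.18, 1.45 and 1.30 FPKM in corticothalamic neurons, with -0.11 ± 0.13 (limma adjusted p = 0.499). RefSeq lists Uqcr as an older symbol of Uqcr11, which has its own row at 51.3 to 134 FPKM, so reads may have been divided between the rows and the Uqcr values are uncertain.

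In complex IV, 11 of 14 tested members were higher at P1 than at E15 and 1 was lower. The 14 include Cox4nb, which encodes no subunit and was not called. One of the 11, Cox6a2, passed the filter only through its P1 values, and the lower gene, Cox7a1, only through embryonic values. Without Cox6a2 the counts of higher members were 10 of 13 in complex IV and 70 of 79 over all complexes. The 10 subunits of the ubiquitous form (Cox4i1, Cox5a, Cox5b, Cox6a1, Cox6b1, Cox6c, Cox7a2, Cox7b, Cox7c and Cox8a) were all higher, by between 0.52 and 1.00. Cox5b, a zinc-binding subunit facing the matrix, had the largest of these differences, 1.00 ± 0.10 (limma adjusted p = 6.5e-05). Cox6a1, the ubiquitous form of subunit VIa, was the most abundant at 267, 245, 245 and 362 FPKM in callosal neurons from E15 to P1, 262, 312, 377 and 554 FPKM in subcerebral neurons and 201, 189.7, 216 and 319 FPKM in corticothalamic neurons. Its P1 callosal and corticothalamic values were below the E18 subcerebral value, so the stages overlapped across subtypes although P1 was the highest stage within each, and the difference was 0.73 ± 0.12 (limma adjusted p = 0.000805).

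The muscle form of the same subunit, Cox6a2, was near 0 before birth, at 0.0248, 0, 0.160 and 3.13 FPKM in callosal neurons from E15 to P1, 0.0501, 0.0256, 0.333 and 1.04 FPKM in subcerebral neurons and 0.0225, 0.0532, 0 and 0.228 FPKM in corticothalamic neurons. Since only its P1 callosal and subcerebral values reached 1 FPKM, it had to differ, and its call (1.08 ± 0.31, limma adjusted p = 0.0145) is given as a description. The heart and muscle form Cox7a1 was the only complex IV gene lower at P1, at -0.48 ± 0.18 (limma adjusted p = 0.0426). Since only embryonic values of Cox7a1 reached 1 FPKM, the filter favoured this direction, and its call is given as a description. Its values, 1.55, 1.60, 0.604 and 0.937 FPKM in callosal neurons from E15 to P1, 1.31, 0.615, 1.09 and 0.637 FPKM in subcerebral neurons and 1.23, 0.828, 1.10 and 0.522 FPKM in corticothalamic neurons, were all near the filter and moved unevenly. Its ubiquitous counterpart Cox7a2 was 62.3, 67.4, 65.6 and 95.1 FPKM in callosal neurons from E15 to P1, 57.3, 71.7, 77.5 and 128 FPKM in subcerebral neurons and 54.8, 56.9, 63.1 and 101 FPKM in corticothalamic neurons, a difference of 0.87 ± 0.10. Cox7a2l, which links complexes III and IV in supercomplexes, was 60.97, 70.1, 71.6 and 82.3 FPKM in callosal neurons from E15 to P1, 71.2, 60.5, 64.3 and 84.8 FPKM in subcerebral neurons and 87.9, 82.1, 77.3 and 71.2 FPKM in corticothalamic neurons. Here P1 was the highest stage in callosal and subcerebral neurons and the lowest in corticothalamic neurons, with an overall difference of 0.13 ± 0.14 (limma adjusted p = 0.445).

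Of the other isoform pairs, the ubiquitous member carried nearly all of the measured level. Cox4i1, the largest nuclear-encoded subunit, was 224, 226, 215 and 311 FPKM in callosal neurons from E15 to P1, 229, 205, 217 and 352 FPKM in subcerebral neurons and 204, 179.7, 189 and 281 FPKM in corticothalamic neurons, while Cox4i2, known from lung, did not exceed 0.0705 FPKM. Cox6b1 was 160.2, 173, 171 and 275 FPKM in callosal neurons from E15 to P1, 139, 153, 185 and 309.9 FPKM in subcerebral neurons and 123, 117, 141 and 241 FPKM in corticothalamic neurons, and its testis form Cox6b2 reached at most 0.876 FPKM, in P1 subcerebral neurons. Cox8a was 121, 128, 153 and 203 FPKM in callosal neurons from E15 to P1, 92.8, 102, 131 and 169.8 FPKM in subcerebral neurons and 78.8, 84.02, 113 and 167 FPKM in corticothalamic neurons. The muscle form Cox8b did not exceed 0.148 FPKM and the testis form Cox8c was listed at 0 throughout.

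In the ATP synthase, 14 of 17 tested members were higher at P1 than at E15 and 1 was lower. The 17 include Atp5s and Atp5sl, which encode no subunit, and Atp5sl was the lower one. The 5 genes of the catalytic F1 head (Atp5a1, Atp5b, Atp5c1, Atp5d and Atp5e) were all higher, by between 0.49 and 0.96. Atp5b, the catalytic beta subunit, was the most abundant member of the complex at 361, 317, 309.7 and 446 FPKM in callosal neurons from E15 to P1, 297, 354, 412 and 648 FPKM in subcerebral neurons and 260.1, 254, 310.1 and 533 FPKM in corticothalamic neurons. Its P1 values exceeded every embryonic value, and the difference was 0.82 ± 0.15 (limma adjusted p = 0.00141). The 7 other stalk and membrane subunits were all higher too, by between 0.49 and 0.92. One of them, Atp5o, the protein that joins the stalk to the F1 head, was among the largest differences at P1 against E18, 0.86 ± 0.14 (limma adjusted p = 0.00198), and had embryonic values of 96.0 to 130.2 FPKM and P1 values of 174 FPKM in callosal, 234 FPKM in subcerebral and 232 FPKM in corticothalamic neurons.

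The c subunit, which forms the rotor ring, is encoded by the 3 genes whose promoters are shown above, and these did not share a course. Atp5g1 was 60.4, 54.97, 57.3 and 99.1 FPKM in callosal neurons from E15 to P1, 54.97, 80.2, 102 and 192 FPKM in subcerebral neurons and 44.9, 48.6, 56.8 and 116 FPKM in corticothalamic neurons. Its P1 value was the highest stage in each subtype, and P1 minus E15 was 1.28 ± 0.18 (limma adjusted p = 0.000278). Atp5g3 was the most abundant of the genes, at 187, 177, 184 and 258 FPKM in callosal neurons from E15 to P1, 163, 215, 265 and 409 FPKM in subcerebral neurons and 147, 147, 173 and 279 FPKM in corticothalamic neurons, with a difference of 0.90 ± 0.14 (limma adjusted p = 0.000634). Atp5g2 was 148, 133, 118 and 133 FPKM in callosal neurons from E15 to P1, 150.3, 100.4, 121 and 147 FPKM in subcerebral neurons and 111, 64.9, 67.8 and 88.8 FPKM in corticothalamic neurons. In each subtype its P1 value was below its E15 value, and the difference was -0.17 ± 0.12 (limma adjusted p = 0.237). At P1 the values in subcerebral neurons were 192 FPKM for Atp5g1, 147 FPKM for Atp5g2 and 409 FPKM for Atp5g3, against 54.97, 150.3 and 163 FPKM at E15. Whether reads were shared with near-identical copies of these genes is unknown here, so the division between them is uncertain.

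**Figure D3:**
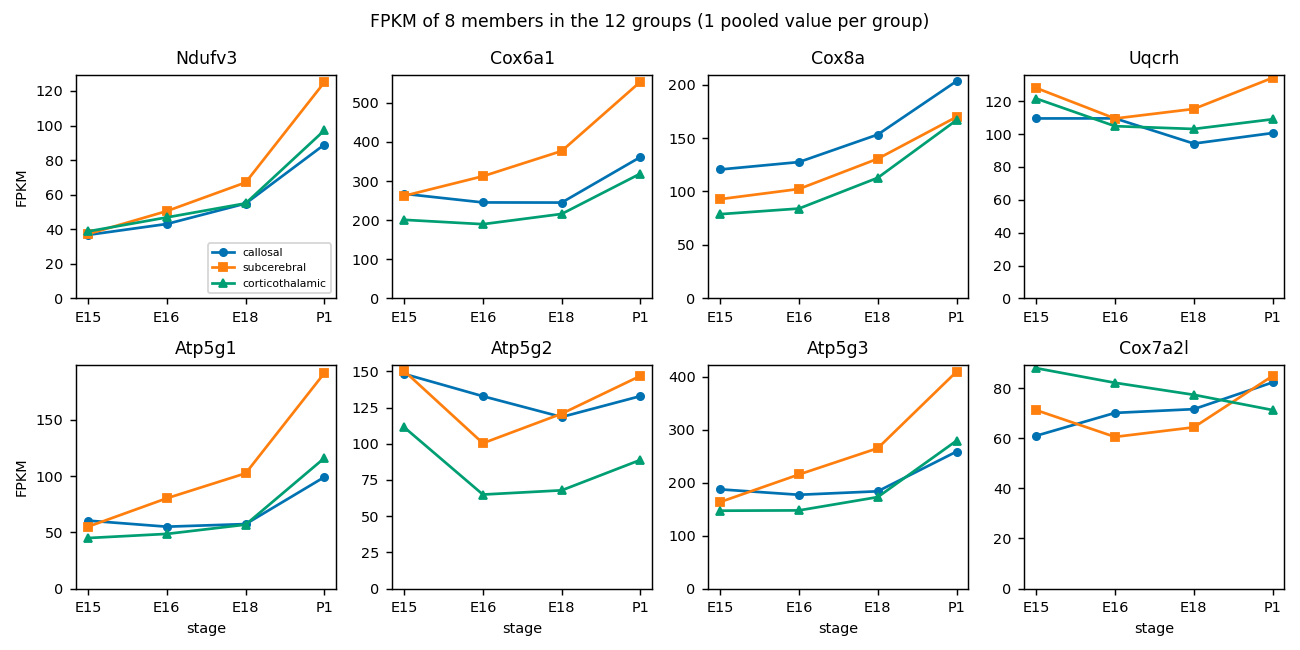
FPKM (y axis, from 0) of 8 members at E15, E16, E18 and P1 (x axis) in callosal (circles), subcerebral (squares) and corticothalamic (triangles) neurons, 1 pooled value per point. Ndufv3, Cox6a1, Cox8a, Atp5g1 and Atp5g3 are highest at P1 in each subtype, whereas Uqcrh, Atp5g2 and Cox7a2l are not in at least 1 subtype; Atp5g2 is 147 FPKM at P1 and 150.3 FPKM at E15 in subcerebral neurons.

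A few rows match the letters of the rule but encode no subunit, and none of them was higher at P1. Atp5sl, listed by RefSeq as Dmac2, was lower in all 3 subtypes, at 13.4, 11.5, 12.6 and 9.83 FPKM in callosal neurons from E15 to P1, 12.8, 11.6, 11.9 and 9.43 FPKM in subcerebral neurons and 10.7, 9.78, 10.005 and 8.14 FPKM in corticothalamic neurons, with a difference of -0.39 ± 0.06 (limma adjusted p = 0.00035). Atp5s, listed as Dmac2l, was the lowest row of the ATP synthase group at 3.22, 3.74, 4.80 and 3.36 FPKM in callosal neurons from E15 to P1, 4.59, 3.31, 4.96 and 4.56 FPKM in subcerebral neurons and 4.93, 4.95, 5.85 and 4.90 FPKM in corticothalamic neurons, a difference of 0.01 ± 0.11 (limma adjusted p = 0.937). Cox4nb, listed as Emc8, a subunit of the membrane protein insertion complex of the endoplasmic reticulum, differed by -0.06 ± 0.08 (limma adjusted p = 0.49), at 14.6, 12.4, 11.7 and 15.3 FPKM in callosal neurons from E15 to P1, 14.2, 11.7, 11.2 and 11.6 FPKM in subcerebral neurons and 12.5, 10.6, 10.1 and 12.7 FPKM in corticothalamic neurons. Its P1 values lay between 11.6 and 15.3 FPKM and its embryonic values between 10.1 and 14.6 FPKM.

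Neighbouring stages were compared in turn. At E16 against E15, limma called 0 members, beside 2.53% of all tested genes higher and 2.62% lower (5.16% in all), and 5 of the 80 had an unadjusted p below 0.05. The nearest to the threshold were Atp5g2 (-0.50 ± 0.12, limma adjusted p = 0.0522) and Ndufv3 (0.31 ± 0.09, limma adjusted p = 0.0855), and 1 member was called with a pseudocount of 0.1, with quantile normalization, without the E16 callosal value or without the P1 subcerebral value. At E18 against E16, 2 members were higher and 0 lower, beside 2.83% and 1.61% of all tested genes (4.45% in all). They were Cox7b, a small subunit of complex IV (0.57 ± 0.12, limma adjusted p = 0.0391), and Cox8a (0.34 ± 0.08, limma adjusted p = 0.0439). Cox7b was 42.98, 34.5, 47.7 and 49.9 FPKM in callosal neurons from E15 to P1, 40.2, 38.6, 58.2 and 75.6 FPKM in subcerebral neurons and 33.3, 27.4, 44.7 and 58.03 FPKM in corticothalamic neurons, with its E16 value the lowest stage in every subtype. The E18 against E16 count was 0 without any 1 subtype, without any 1 of the E16 and E18 values, and with no filter on low values, 1 without the P1 subcerebral value, and 7 without the E15 subcerebral value or in a fit on these stages alone.

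At P1 against E18, 71 members were higher and 1 was lower, beside 19.6% and 20.6% of all tested genes (40.2% in all), with medians of 0.62 for the members and 0.00 for all tested genes. Among genes with a mean of 20 to 500 FPKM, 68 of 73 members were higher, beside 30.4% of those genes. By complex, 35 members of complex I, 4 of complex II, 7 of complex III, 11 of complex IV and 14 of the ATP synthase were higher; without Cox6a2 the higher members were 70 of 79. Besides Ndufb6, Ndufc2, Ndufa11 and Atp5o, given above, the largest differences were those of Atp5g1 (0.90 ± 0.18), Ndufa1 (0.87 ± 0.16), Ndufb8 (0.87 ± 0.12), Uqcrq (0.87 ± 0.13) and Ndufa4 (0.80 ± 0.13), with Cox6a2 at 0.91 ± 0.31 from the low values described above. Atp5sl was the lower gene (-0.30 ± 0.06, limma adjusted p = 0.00334). The genes not called included Atp5g2 (0.28), Ndufa6 (0.32), Uqcrh (0.13), Cox7a2l (0.16) and Cox7b (0.27). Without corticothalamic neurons the count called was 30 in place of 72.

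The subtypes took different paths to P1. The median member's step was -0.04 at E16 minus E15, 0.02 at E18 minus E16 and 0.52 at P1 minus E18 in callosal neurons. In subcerebral neurons the steps were 0.16, 0.20 and 0.65, and in corticothalamic neurons -0.01, 0.19 and 0.68. The median P1 to E15 fold was 1.35 in callosal, 2.08 in subcerebral and 1.85 in corticothalamic neurons, while over all tested genes it was 0.995, 0.992 and 1.00. A fold of at least 2 was reached by 4 members in callosal, 43 in subcerebral and 24 in corticothalamic neurons, beside 15.7%, 18.7% and 13.8% of all tested genes. One of the 4 in callosal neurons was Cox6a2, from an E15 value of 0.0248 FPKM. Of the 80 tested members, 65 had their largest fold in subcerebral neurons, and 70 had their smallest in callosal neurons, beside 34.7% and 33.9% of the 13877 tested genes with E15 values above 0. With 1 pooled value per group, the dependence of the stage difference on subtype was not tested.

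The order of the subtypes at P1 was not that at E15. At P1 the level was highest in subcerebral neurons for 73 of the 80 tested members, beside 37.3% of all tested genes, and lowest in callosal neurons for 60 (32.2%), with corticothalamic neurons lowest for 19 (30%). At E15 it was highest in callosal neurons for 58, beside 40.6% of all tested genes, and lowest in corticothalamic neurons for 69 (39.3%). In all, 70 members had their highest value of the 12 in P1 subcerebral neurons, the column with the largest total, beside 21.6% of all tested genes. The E15 callosal values that stand highest come from the group with 68.6 FPKM of interneuron markers other than Npy, whose part in that order was not tested. The median difference of callosal minus subcerebral was 0.11, -0.09, -0.29 and -0.44 from E15 to P1, with callosal neurons higher in 60, 21, 5 and 5 of the 80 members. The members at least 1.25-fold higher in callosal than in subcerebral neurons numbered 4, 2, 0 and 3 over the stages, beside 16.6%, 20.7%, 23.5% and 27.5% of all tested genes, and those at least 1.25-fold lower numbered 3, 9, 37 and 57, beside 20.2%, 21.3%, 22.8% and 27.1%. The median of callosal minus corticothalamic was 0.26, 0.23, 0.03 and -0.10. Here 30, 21, 4 and 3 members were at least 1.25-fold higher in callosal neurons (22.5%, 20.4%, 18.3% and 20.1% of all tested genes) and 3, 2, 3 and 6 at least 1.25-fold lower (24.3%, 21.5%, 19.8% and 20.3%). The median of subcerebral minus corticothalamic was 0.13 at E15 and 0.33, 0.34 and 0.34 after it. In subcerebral neurons 8, 44, 44 and 44 members were at least 1.25-fold higher than in corticothalamic neurons (12.9%, 19.7%, 22.5% and 25.7% of all tested genes) and 0, 4, 0 and 0 at least 1.25-fold lower (15.7%, 21.8%, 24.9% and 28% of all tested genes). The comparisons share values, and a pair of subtypes at 1 stage has no test.

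**Figure D4:**
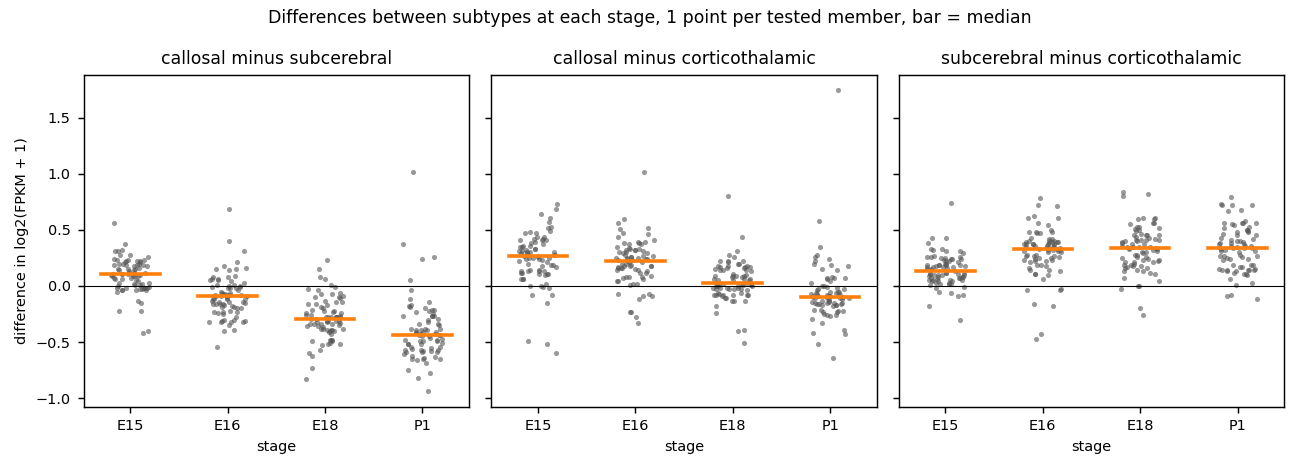
Difference in log2(FPKM + 1) between subtypes (y axis) at each stage (x axis) for callosal minus subcerebral, callosal minus corticothalamic and subcerebral minus corticothalamic, with 1 point per tested member and a bar at the median. The median of callosal minus subcerebral is -0.44 at P1 and 0.11 at E15, and that of subcerebral minus corticothalamic stays between 0.13 and 0.34.

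Averaged over the stages, callosal neurons were compared with subcerebral neurons. In callosal neurons 1 member was higher and 14 were lower, beside 14.1% and 15.2% of all tested genes (29.3% in all), with a median of -0.19 for the members and -0.01 for all tested genes. The share of members called was below the background, and 70 of the 80 differences were negative. The lower genes were 5 of complex I, Sdha of complex II, 4 of complex III, 3 of complex IV and 1 of the ATP synthase. Atp5g1 had the largest difference, -0.54 ± 0.15 (limma adjusted p = 0.0288): its callosal value was above the subcerebral one at E15 and below it at the 3 later stages. Uqcrb, a small subunit at the ubiquinone side of complex III, followed with -0.44 ± 0.14 (limma adjusted p = 0.0436), at 57.1, 50.6, 48.99 and 67.1 FPKM in callosal neurons from E15 to P1, 52.9, 66.4, 82.1 and 113 FPKM in subcerebral neurons and 52.3, 53.9, 65.2 and 105 FPKM in corticothalamic neurons. Ndufb4, of the membrane arm of complex I, was 45.1, 45.4, 43.2 and 68.8 FPKM in callosal neurons from E15 to P1, 45.8, 53.8, 64.4 and 123 FPKM in subcerebral neurons and 36.3, 37.8, 43.7 and 76.2 FPKM in corticothalamic neurons. Callosal levels of Ndufb4 were below subcerebral ones at every stage, by -0.41 ± 0.11 (limma adjusted p = 0.0275).

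Of complex IV, Cox6c was 127, 122, 125 and 173 FPKM in callosal neurons from E15 to P1, 130.4, 152, 179 and 280.4 FPKM in subcerebral neurons and 122, 109, 127 and 195 FPKM in corticothalamic neurons, a difference of -0.39 ± 0.10 (limma adjusted p = 0.0213) for callosal minus subcerebral. Cox6a1 differed by -0.39 ± 0.10 (limma adjusted p = 0.0254) and Cox7c by -0.32 ± 0.07 (limma adjusted p = 0.0143). Ndufb8, Uqcr11 and Ndufs6, a subunit of the peripheral arm of complex I, had differences of -0.34, -0.33 and -0.33, and Ndufv3 differed by -0.25 ± 0.08 (limma adjusted p = 0.0401). Cox8a was the exception: the 12 values above were higher in callosal neurons than in subcerebral neurons at every stage, by 0.29 ± 0.07 (limma adjusted p = 0.0125). The count of 15 called was 0 without E16 or E18, 1 without P1 and 46 without E15; it was 1 in a fit on these subtypes alone and 9 with no filter on low values. Without 1 group value it was 34 (E15 callosal), 39 (E15 subcerebral), 5 (E16 callosal), 4 (E16 subcerebral), 1 (E18 callosal or E18 subcerebral), 2 (P1 callosal or P1 subcerebral) and 9 (E16 or E18 corticothalamic).

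Callosal neurons were next compared with corticothalamic neurons. In callosal neurons 9 members were higher and 1 was lower, beside 15.3% and 16% of all tested genes (31.3% in all), with a median of 0.10, beside 0.01. The share called was below the background. Atp5g2, whose 12 values are given above, was higher in callosal neurons at every stage, by 0.70 ± 0.10 (limma adjusted p = 0.00177). Cox8a was higher by 0.48 ± 0.07 (limma adjusted p = 0.00111) and Cox6b1 by 0.35 ± 0.08 (limma adjusted p = 0.0115). The others were Uqcr (0.36 ± 0.12), the complex I subunit Ndufs4 (0.29 ± 0.09), the ATP synthase coupling factor Atp5j (0.27 ± 0.07), Atp5sl (0.26 ± 0.05), Cox4nb (0.22 ± 0.07) and Cox4i1 (0.20 ± 0.06). Ndufs4 was 24.9, 23.9, 24.5 and 34.3 FPKM in callosal neurons from E15 to P1, against 16.4, 18.5, 21.9 and 32.4 FPKM in corticothalamic neurons. Atp5s was lower in callosal neurons, with a difference of -0.37 ± 0.10 (limma adjusted p = 0.0196). The count of 10 called was 2 without E18, 3 without E16 and 6 with no filter on low values. Without 1 group value it was 17 (P1 callosal), 6 (E15 or E18 callosal, E16 or E18 subcerebral, or E18 corticothalamic), 5 (E16 callosal or E15 corticothalamic) and 3 (E16 corticothalamic).

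Subcerebral neurons, finally, were compared with corticothalamic neurons. In subcerebral neurons 39 members were higher and 0 lower, beside 14.7% and 12.8% of all tested genes (27.5% in all), with a median of 0.28 for the members and 0.00 for all tested genes. Among genes with a mean of 20 to 500 FPKM, 37 of 73 members were higher and 0 lower, beside 21.6% and 9.58%. The higher genes were 16 of complex I, 1 of complex II, 4 of complex III, 8 of complex IV and 10 of the ATP synthase. The 16 of complex I were all accessory subunits: 0 of the 7 core subunits passed. Cox6a1 had the largest difference, 0.67 ± 0.10 (limma adjusted p = 0.00545), and its 12 values above were higher in subcerebral neurons than in corticothalamic neurons at each stage. All 3 genes of the c subunit were higher: Atp5g2 by 0.65 ± 0.10 (limma adjusted p = 0.00626), Atp5g1 by 0.64 ± 0.15 (limma adjusted p = 0.0192) and Atp5g3 by 0.47 ± 0.12 (limma adjusted p = 0.0279).

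Of complex III, Uqcr11 was 65.8, 55.5, 62.2 and 92.1 FPKM in callosal neurons from E15 to P1, 64.8, 73.4, 82.1 and 134 FPKM in subcerebral neurons and 51.3, 52.4, 55.5 and 89.5 FPKM in corticothalamic neurons, which was higher in subcerebral than in corticothalamic neurons at every stage, by 0.49 ± 0.08 (limma adjusted p = 0.00732). Uqcrq differed by 0.48 ± 0.12 (limma adjusted p = 0.0201), Uqcr10 by 0.45 ± 0.07 (limma adjusted p = 0.00658) and the uncertain row Uqcr by 0.64 ± 0.12 (limma adjusted p = 0.00848). Of complex I, Ndufb4 differed by 0.51 ± 0.11 (limma adjusted p = 0.0157), and Ndufa3, of the membrane arm, by 0.45 ± 0.12 (limma adjusted p = 0.03). Ndufa3 was 50.9, 60.2, 65.8 and 124 FPKM in subcerebral neurons from E15 to P1, against 44.1, 46.9, 45.6 and 74.8 FPKM in corticothalamic neurons. The count of 39 called was 0 without E18, 1 without E16, 8 without P1 and 55 without E15, and 20 with no filter on low values. Without 1 group value it was 57 (E15 subcerebral), 24 (E18 callosal or E15 corticothalamic), 18 (P1 corticothalamic), 6 (E16 subcerebral, P1 subcerebral or E16 corticothalamic) and 5 (E18 subcerebral or E18 corticothalamic).

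Marker levels of other cells differed between subtypes as well. The interneuron sum was 84.2 to 398 FPKM in callosal neurons, 11.4 to 422 FPKM in subcerebral neurons and 89.8 to 718 FPKM in corticothalamic neurons over the stages. Without Npy it was 2.78 to 68.6 FPKM in callosal, 3.22 to 13.3 FPKM in subcerebral and 8.34 to 30.7 FPKM in corticothalamic neurons. The astrocyte and radial glia sum was 74.4 to 125 FPKM in callosal, 119.5 to 193 FPKM in subcerebral and 116 to 173 FPKM in corticothalamic neurons. Sparcl1 carried much of this order, with a callosal minus subcerebral difference of -2.09 ± 0.26 (limma adjusted p = 0.00116). Without Sparcl1 the sum was 61.2 to 84.1 FPKM in callosal, 47.6 to 69.3 FPKM in subcerebral and 62.4 to 83.2 FPKM in corticothalamic neurons. That sum was higher in callosal than in subcerebral neurons at E16, E18 and P1, and lower at E15. Of the 11 tested progenitor markers, 6 passed as higher and 0 as lower for callosal minus subcerebral (median 0.44), and 0 as higher and 6 as lower for subcerebral minus corticothalamic (median -0.29). Over all tested genes 14.1% were higher and 15.2% lower in the first comparison, and 14.7% and 12.8% in the second. Sox2, Hes5 and Top2a stayed below 1 FPKM in subcerebral neurons and passed the filter only through the other subtypes. Their direction in both comparisons was thus set by the filter. In callosal against corticothalamic neurons 2 progenitor markers were higher and 0 lower, beside 15.3% and 16% of all tested genes. Of the 9 tested microglia markers, 7 were higher and 0 lower for callosal minus subcerebral, and 7 higher and 1 lower for callosal minus corticothalamic. Cx3cr1, Csf1r, Tyrobp, C1qa, C1qb, C1qc and P2ry12 reached 1 FPKM only in callosal neurons, so the filter set their direction. The microglia sum was at most 54.9 FPKM in any group. The part of these marker levels in the subtype differences was not tested.

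Genes that act with the respiratory chain and ATP synthase but do not match the naming rule were read from lists. At P1 against E15 the lists of assembly factors had smaller medians than the 0.77 of the members. Over all tested genes 33.8% were higher and 33.6% lower, and the shares higher of the factors of complexes I and IV were near or little above that. For complex I, 3 of 10 tested factors were higher and 1 lower (median 0.12): Ndufaf4 (0.63 ± 0.13), Ecsit (0.39 ± 0.07) and Ndufaf3 (0.20 ± 0.07) were higher and Tmem186 (-0.26 ± 0.08) lower. For complex II, both tested factors were lower, Sdhaf1 (-0.60 ± 0.10) and Sdhaf2 (-0.33 ± 0.10). For complex III, Ttc19 was higher (0.57 ± 0.05), while Bcs1l (-0.47 ± 0.08), which inserts the Rieske protein, and Lyrm7 (-0.39 ± 0.09) were lower. For complex IV, 5 of 11 were higher and 0 lower (median 0.08), among them Cox10 (0.57 ± 0.12) and Cox15 (0.29 ± 0.09), which make heme a, Cox18 (0.56 ± 0.09) and Surf1 (0.49 ± 0.07).

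On the ATP synthase list, 4 of 6 genes were higher and 1 lower (median 0.39), beside 33.8% and 33.6% of all tested genes. Atpif1, the inhibitor of ATP hydrolysis by the enzyme, was 106, 106, 111 and 171 FPKM in callosal neurons from E15 to P1, 95.7, 118, 134 and 211 FPKM in subcerebral neurons and 84.1, 83.9, 94.98 and 169 FPKM in corticothalamic neurons. The difference of Atpif1 was 0.94 ± 0.10 (limma adjusted p = 5.87e-05). Usmg5 (0.85 ± 0.12) and 2010107E04Rik (0.53 ± 0.11) were also higher. These encode small membrane subunits of the ATP synthase itself, whose names the rule does not match. The assembly factor Atpaf2 was lower (-0.28 ± 0.06). Of the genes for cytochrome c and for ubiquinone synthesis, 6 of 13 were higher and 1 lower (median 0.15), again beside 33.8% and 33.6%. Cycs, the somatic cytochrome c that carries electrons between complexes III and IV, was 16.5, 13.7, 15.1 and 24.5 FPKM in callosal neurons from E15 to P1, 12.6, 19.03, 22.2 and 34.2 FPKM in subcerebral neurons and 10.1, 10.6, 14.6 and 28.7 FPKM in corticothalamic neurons. It was highest at P1 in each subtype, and its difference was 1.11 ± 0.18 (limma adjusted p = 0.000706).

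Regulators of mitochondrial biogenesis were more often lower than higher. Of 15 tested, 1 was higher and 9 were lower at P1 than at E15, beside 33.8% and 33.6% of all tested genes, with a median of -0.46. Nrf1, whose letters are marked in the promoters above, was 14.9, 13.4, 12.6 and 9.87 FPKM in callosal neurons from E15 to P1, 13.7, 12.7, 10.6 and 9.15 FPKM in subcerebral neurons and 12.8, 12.1, 10.8 and 10.3 FPKM in corticothalamic neurons, so each stage was below the one before in all 3 subtypes. Its difference was -0.46 ± 0.07 (limma adjusted p = 0.000598). Gabpa, the DNA-binding subunit of GABP, differed by -0.76 ± 0.15, and Gabpb2, a partner subunit, by -1.02 ± 0.21. The estrogen-related receptor Esrra differed by -0.90 ± 0.11 and the mitochondrial rRNA methyltransferase Tfb1m by -0.83 ± 0.18. Peo1, the mitochondrial DNA helicase, differed by -0.81 ± 0.07, and Tfam, which packages mitochondrial DNA, was the higher one (0.15 ± 0.05, limma adjusted p = 0.0387). Ppargc1a, the coactivator PGC-1alpha, named after its values were seen, was 0.598, 0.270, 0.314 and 0.324 FPKM in callosal neurons from E15 to P1, 0.476, 0.858, 1.84 and 1.89 FPKM in subcerebral neurons and 0.714, 1.08, 1.60 and 1.93 FPKM in corticothalamic neurons. It was lower at P1 than at E15 in callosal neurons and higher in the others, with a difference of 0.49 ± 0.22 that did not pass (limma adjusted p = 0.081). Since only subcerebral and corticothalamic values of Ppargc1a reached 1 FPKM, callosal neurons had to be lower. Its callosal minus subcerebral difference of -0.67 ± 0.19 and callosal minus corticothalamic difference of -0.74 ± 0.19 are given as a description.

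**Figure D5:**
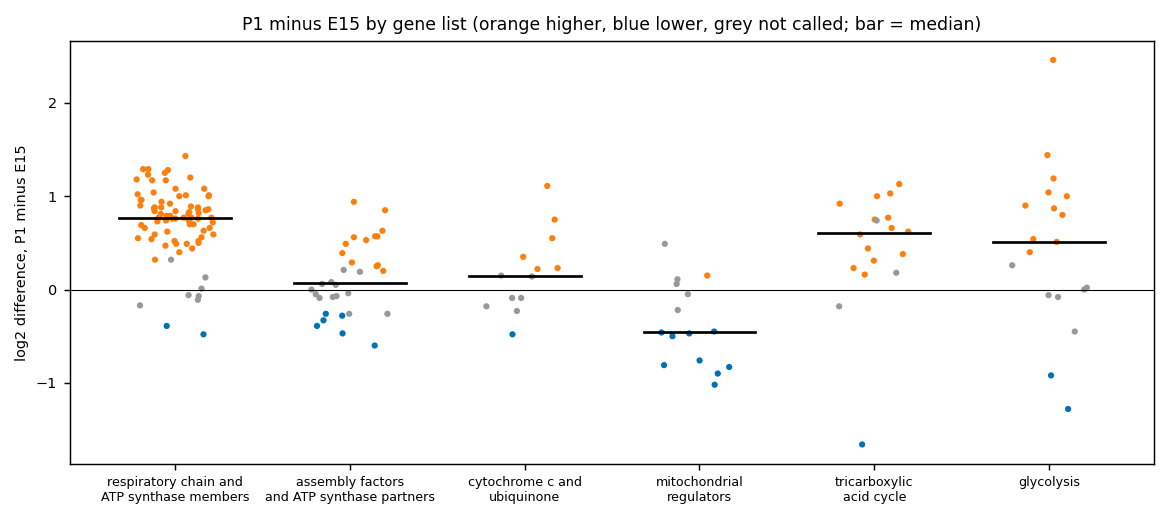
Log2 difference of P1 minus E15 (y axis) for the tested members and for 5 groups of genes outside the naming rule (x axis), 1 point per gene, orange for higher, blue for lower and grey for not called, with a bar at the median. The median of the members is 0.77 and that of the mitochondrial regulators is -0.46.

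In the table, 1 mitochondrially encoded gene of the list was matched, mt-Nd4, a membrane subunit of complex I. It was 2065, 1701, 1413 and 1373 FPKM in callosal neurons from E15 to P1, 1938, 1751, 1807 and 1910.2 FPKM in subcerebral neurons and 1667, 1290.1, 1127 and 992 FPKM in corticothalamic neurons. Its level was lower at P1 than at E15 in callosal and corticothalamic neurons and close to its E15 level in subcerebral neurons, with a difference of -0.45 ± 0.13 (limma adjusted p = 0.0158). Subcerebral minus corticothalamic was 0.57 ± 0.12 (limma adjusted p = 0.0124), the same sign as for the nuclear subunits. Libraries were made with poly(A) selection, per the labels' protocols, and how that bears on mitochondrial transcripts was not tested.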

How the data were processed

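RNA-seq was done on FACS-sorted cortical neurons of CD1 mice, with 24 libraries in 12 groups. Per the submitters' processing notes, TopHat2, Cufflinks and the mouse build mm9 were used. The deposited table gives 1 value per group, read as FPKM because Cufflinks was used, values are never negative and column totals differ. No source used here states how the 2 libraries of a group were combined, nor the versions, annotation, scaling or use of strand. Depth is therefore unknown, so counting intervals are not given, and reads of near-identical copies cannot be separated.

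Members were matched by name. The 13946 genes that reached 1 FPKM in 2 or more columns were tested, 80 of the 86 members among them. limma 3.58.1 (statmod 1.5.0, R 4.3.3; trend and robust moderation) was fitted to log2(FPKM + 1) with additive stage and subtype terms, 6 residual degrees of freedom and Benjamini-Hochberg adjustment at 0.05. The step was tested on simulated data. Fold changes understate those of low genes. Single stages have no test.

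Genes were named by rule: Ndufv3, the highest and lowest member of each complex, up to 10 called members per comparison, isoform families, rows that encode no subunit, and up to 4 called genes per partner list. Members, lists and motif letters were chosen with earlier results of these data known. Promoter windows are from RefSeq. Alternatives covered the pseudocount, filter, scaling, moderation, columns fitted, and each stage, subtype and group value left out. Members not named in the text enter the counts, sums and ranges; the individual result of 1 tested member is not reported here and is not drawn.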

Additional observations from a re-analysis of the deposited data

How the results depend on the processing

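The P1 minus E15 count of 73 members stayed between 70 and 74 over the leave-one-out fits, and the P1 minus E18 count of 72 between 30 and 71. With quantile normalization P1 minus E15 gave 70 higher and 4 lower, and P1 minus E18 gave 58 and 1. The counts between subtypes moved more: over the leave-one-out fits callosal minus subcerebral ran between 0 and 46, callosal minus corticothalamic between 2 and 17 and subcerebral minus corticothalamic between 0 and 57. E16 minus E15 ran between 0 and 1 and E18 minus E16 between 0 and 7. With no filter on low values the counts were 9 for callosal minus subcerebral, 6 for callosal minus corticothalamic, 20 for subcerebral minus corticothalamic and 0 for E18 minus E16. In fits on the compared groups alone, callosal minus subcerebral gave 1 and E18 minus E16 gave 7. E16 minus E15 gave 1 with a pseudocount of 0.1 and 1 with quantile normalization. The cause was not tested, beyond the fewer values in the fits that leave some out. Of the values of named members under these alternatives, 1021 kept their side of the threshold, 274 no longer passed, 6 newly passed and none changed sign. No paired analysis was possible because the table pools the libraries of a group, and for the same reason no single library could be left out. Depth could not be weighed, since FPKM values keep no counts.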

Other observations

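Carbon pathways that feed the respiratory chain were read in the same fit. Of the 18 genes of the tricarboxylic acid cycle and pyruvate dehydrogenase, 14 were higher at P1 than at E15 and 1 was lower, with a median log2 difference of 0.60, beside 33.8% and 33.6% of all tested genes. Idh3a, a subunit of NAD-dependent isocitrate dehydrogenase, differed by 1.13 ± 0.11, Fh1, fumarate hydratase, by 1.03 ± 0.10, and Pdha1, the catalytic subunit of pyruvate dehydrogenase, by 1.00 ± 0.12 (limma, log2(FPKM + 1) ± SE). Idh2, the NADP-dependent mitochondrial isocitrate dehydrogenase, was the lower gene, at 53.3, 53.1, 41.9 and 16.2 FPKM in callosal neurons from E15 to P1, 40.1, 36.4, 22.1 and 9.71 FPKM in subcerebral neurons and 43.4, 45.9, 43.3 and 16.1 FPKM in corticothalamic neurons. The difference of Idh2 was -1.66 ± 0.13 (limma adjusted p = 2.07e-05), so the isocitrate dehydrogenases of the list did not share a direction.

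Of the 19 tested genes of glycolysis and glucose uptake, 11 were higher at P1 than at E15 and 2 lower, beside 33.8% and 33.6% of all tested genes, with a median of 0.51. Pfkp, the platelet form of phosphofructokinase, was 9.03, 17.1, 44.3 and 79.7 FPKM in callosal neurons from E15 to P1, 17.4, 78.6, 105 and 135 FPKM in subcerebral neurons and 36.6, 53.2, 70.5 and 104 FPKM in corticothalamic neurons. It differed by 2.46 ± 0.35 (limma adjusted p = 0.000373), and aldolase A (Aldoa) by 1.44 ± 0.26. The glucose transporter Slc2a1 (-1.28 ± 0.19) and hexokinase Hk2 (-0.92 ± 0.17) were the lower ones, whereas Hk1, the main hexokinase of brain, was higher (1.00 ± 0.10). Only embryonic callosal and subcerebral values of Hk2 reached 1 FPKM. The filter thus favoured the direction of Hk2 between stages and against corticothalamic neurons, and its call is given as a description. Between subtypes, 0 glycolysis genes were higher and 10 lower in callosal than in subcerebral neurons, beside 14.1% and 15.2% of all tested genes. In subcerebral against corticothalamic neurons 8 were higher and 0 lower, beside 14.7% and 12.8%. Lactate dehydrogenase A (Ldha), which makes lactate from pyruvate, was among both, with -0.98 ± 0.09 for callosal minus subcerebral and 0.79 ± 0.09 for subcerebral minus corticothalamic. The values of Ldha were 96.0, 98.5, 123 and 170.4 FPKM in callosal neurons from E15 to P1, 162, 227, 242 and 342 FPKM in subcerebral neurons and 119, 115, 123 and 198 FPKM in corticothalamic neurons.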
